A study of Mus musculus with 8 samples.

Results

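The genes described here encode the carriers that move proteins and RNA between nucleus and cytoplasm, and the proteins of the pore through which they pass. They were chosen by name: every probe set with exactly 1 gene symbol on the platform that starts with Kpna, Kpnb, Xpo or Tnpo, or with Nup or Ipo followed by a digit. This gave 42 genes of the 18193 on the array with a single symbol, namely 17 importins (Kpna, Kpnb, Ipo and Tnpo), 6 exportins (Xpo) and 19 pore proteins (Nup). For each gene the probe set with the highest mean log2 signal was used. A signal filter kept 41 of the 42, and these were tested among 11754 genes. The gene left out, Kpna7, had a mean signal of 8.54 in MYC-positive and 31.6 in MYC-negative arrays, around the filter level of 18.7.

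The cells were germinal centre (GC) B cells, which divide and mutate their antibody genes during an immune response. They came from spleens of 8-week-old GFPMYC/C57BL6 mice, taken 12 days after immunization with sheep red blood cells. All samples carry the same knock-in, a fusion of GFP to MYC, so GFP reports the MYC protein, and both groups were gated as binding peanut agglutinin strongly and carrying much CD95. The sort by GFP gave the MYC-positive cells and the MYC-negative cells, with 4 arrays each. Each positive sample is tied to a negative one by the descriptions, which makes 4 pairs. The replicate numbers in the sample titles differ between the groups and do not match these pairs, which rest on the descriptions. The labels speak both of a sort for each mouse and of cell pools, so a pair may not be a single mouse, and where pairs are not separate animals, p-values cover no more than how these samples vary, which may be technical.

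Nuclear pores are large ring-shaped assemblies set into the nuclear envelope, built from scaffold proteins, membrane anchors and flexible proteins rich in phenylalanine-glycine repeats that fill the channel. Importins bind cargo in the cytoplasm and release it in the nucleus when the GTPase Ran, loaded with GTP there, binds them, while exportins bind cargo together with Ran-GTP and release it in the cytoplasm. Growing lymphocytes need this traffic for ribosome assembly, since ribosomal proteins are imported and finished subunits, tRNA and mRNA are exported. The roles given below for single carriers were worked out largely with human proteins.

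Signals are array intensities on a linear scale, and every difference is a log2 value, the MYC-positive array less the MYC-negative one, with values by array in the order of pairs 1 to 4. A positive difference means a higher signal in MYC-positive cells. Each probe set binds with its own efficiency, so signals are compared between arrays and not between genes. Mean signals are geometric. Myc itself had signals of 361, 932, 644 and 891 in MYC-positive arrays, against 33.3, 156, 105 and 137 in MYC-negative arrays, a difference of 2.83 (SE 0.28, adjusted p = 0.00069). The arrays of both groups had trimmed mean signals between 497 and 498, but the median signal lay between 28.2 and 39.7 in MYC-positive arrays and between 41.4 and 55.8 in MYC-negative arrays. The MYC-positive array of pair 4 had the lowest median and the smallest share of probe sets above a signal of 100 (34.7%). Of 5 measured B cell marker genes 0 were higher and 1 was lower (Cd22), and their summed signal ran from 31810 to 39405 in MYC-positive and from 39735 to 47456 in MYC-negative arrays. Of 5 GC marker genes 0 were higher and 1 was lower (Fas), with sums from 18124 to 21539 in MYC-positive and from 22486 to 29607 in MYC-negative arrays. Of 11 macrophage marker genes on the array 9 were tested and 7 were higher, with a summed signal from 1178 to 8275 in MYC-positive and from 340.2 to 833 in MYC-negative arrays. C1qa, C1qc, Csf1r, Vcam1 and Cd163 had mean signals between 3.33 and 7.44 in MYC-negative arrays, under the filter level. Of 5 plasma cell marker genes 2 were higher, Irf4 and Sdc1, with sums from 23945 to 30602 in MYC-positive and from 15921 to 27976 in MYC-negative arrays. Summed signals of T cell markers were at most 102 in MYC-positive and 123 in MYC-negative arrays, and those of erythroid markers at most 60.8 and 35.4. Whether other cells were present and had a part in the differences below was not tested. In RNA of whole sorted fractions fewer cells of a type cannot be told apart from less RNA per cell.

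Nuclear transport genes tended to be higher in the MYC-positive fraction, by modest amounts, and 0 were called lower. Of 41 tested, 9 were higher at an adjusted p under 0.05, which is 22.0% of them, where 11.2% of all genes tested were higher. The 9 were Ipo4, Ipo11, Ipo5 and Ipo7 among 16 importins, Xpot among 6 exportins, and Nup43, Nup37, Nup54 and Nup85 among 19 pore proteins. By limma 0 of 41 were lower, where 11.5% of all genes were, and at an unadjusted p under 0.05 there were 14 higher and 1 lower (over all genes, 17.0% were higher and 19.2% lower by that measure). A difference above 0 was found for 36 of the 41, beside 45.9% of all genes, and 21 were higher in all 4 pairs (51.2%, against 19.3% of all genes). In 8 (19.5%) all MYC-positive arrays lay above all MYC-negative ones, against 11.1% of all genes. The median difference was 0.27 for importins, 0.44 for exportins and 0.30 for pore proteins, beside -0.063 for all genes tested. Most members did not pass by limma even at an unadjusted p under 0.05, and a few stood well above the rest. The counts depended on the scaling: with each array centred on its own median, under which the median over all genes moved up by 0.44, 28 of 41 members were higher, beside 27.3% of all genes, and 0 were lower. That scaling made 85.4% of the calls over all genes higher ones, against 49.4% without it. Under quantile normalization 12 of 41 members and 1787 of 11771 genes were higher. The medians were then 0.25 for importins, 0.47 for exportins and 0.19 for pore proteins, beside 0.087 for all genes. Leaving out a pair changed the count to 4 without pair 1, 3 without pair 2, 5 without pair 3 and 15 without pair 4. The share of all genes called higher moved too, to 3.43% without pair 1, 3.87% without pair 2, 10.1% without pair 3 and 14.8% without pair 4.

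**Figure D1:**
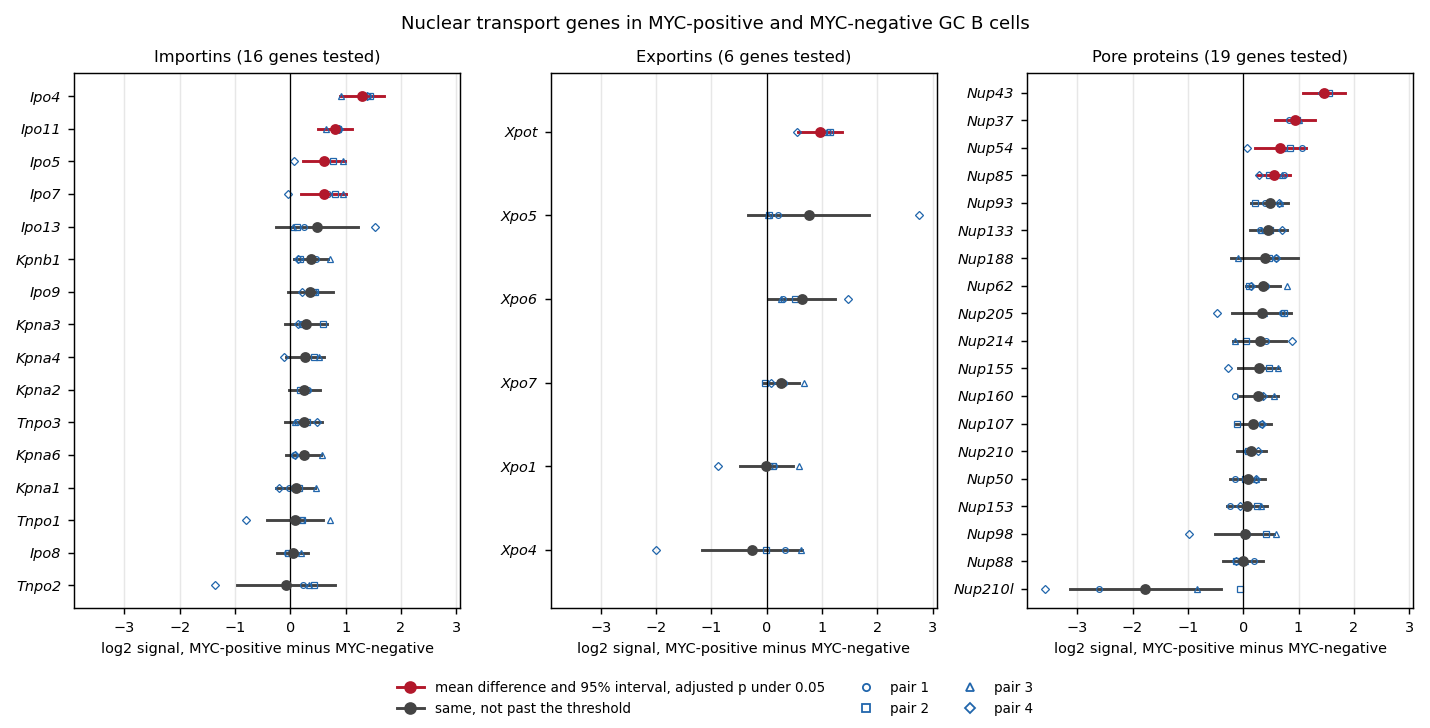
Difference in log2 signal (MYC-positive minus MYC-negative, x axis) for each tested importin, exportin and pore protein gene, with the mean and its 95% interval as a filled point and bar and the 4 pairs as open symbols. Red marks the 9 genes with adjusted p under 0.05, from 0.55 for Nup85 to 1.46 for Nup43, and the pair 4 symbols lie apart from the other pairs in genes such as Xpo4, Xpo5 and Nup98.

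The promoters of the members were searched for CACGTG, the E-box that MYC binds with its partner MAX and that reads the same on both strands. RefSeq windows on GRCm38.p6, from 250 bases before to 50 bases after a gene's start, were matched by symbol for 34 of the 42 genes. The genes not matched were Kpna1, Kpna3, Kpna6, Xpo4, Xpo7, Nup43, Nup85 and Nup210l. The E-box was found in 7 of these 34 (20.6%), in 4 of the 7 matched members that were called higher (57.1%) and in 3 of the 26 matched members that were tested and not called (11.5%). Over all 27025 genes of the promoter table it was present in 8.09%, over genes tested in 11.7%, over genes called higher in 17.4% and over genes called lower in 9.55%. Of 32 matched transport genes outside the name rule, listed further on, 2 held it (6.25%). The 4 called members were the importins Ipo4 and Ipo7, the tRNA exportin Xpot and the channel protein Nup54, while the windows of Ipo5, Ipo11 and Nup37 held no such letters. Their windows are printed 5′ to 3′ on the gene's strand, because these are the called members that hold the E-box, which is marked by capitals.
Ipo4 (chr14:55635635-55635934, minus strand): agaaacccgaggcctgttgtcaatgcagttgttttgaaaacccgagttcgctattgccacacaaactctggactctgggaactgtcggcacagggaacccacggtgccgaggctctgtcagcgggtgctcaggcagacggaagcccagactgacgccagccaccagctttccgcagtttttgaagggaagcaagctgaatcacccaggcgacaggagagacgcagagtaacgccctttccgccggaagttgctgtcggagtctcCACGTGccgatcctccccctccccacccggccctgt
Ipo7 (chr7:110018065-110018364, plus strand): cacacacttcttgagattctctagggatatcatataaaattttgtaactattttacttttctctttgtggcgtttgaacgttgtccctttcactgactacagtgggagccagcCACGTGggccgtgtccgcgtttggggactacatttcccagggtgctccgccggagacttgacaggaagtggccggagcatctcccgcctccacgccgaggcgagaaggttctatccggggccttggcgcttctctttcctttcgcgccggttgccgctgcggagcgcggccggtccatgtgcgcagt
Xpot (chr10:121626283-121626582, minus strand): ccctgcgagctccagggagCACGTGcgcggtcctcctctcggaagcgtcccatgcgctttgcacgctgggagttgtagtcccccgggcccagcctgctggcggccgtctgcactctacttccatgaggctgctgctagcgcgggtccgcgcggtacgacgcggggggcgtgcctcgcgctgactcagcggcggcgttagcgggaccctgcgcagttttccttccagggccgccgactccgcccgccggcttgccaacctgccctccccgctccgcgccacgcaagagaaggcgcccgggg
Nup54 (chr5:92435150-92435449, minus strand): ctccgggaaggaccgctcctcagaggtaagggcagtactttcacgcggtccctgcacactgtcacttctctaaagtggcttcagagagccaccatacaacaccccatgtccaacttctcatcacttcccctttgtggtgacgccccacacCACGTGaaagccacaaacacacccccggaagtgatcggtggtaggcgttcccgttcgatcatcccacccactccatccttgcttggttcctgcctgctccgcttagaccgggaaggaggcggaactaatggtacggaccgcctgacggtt

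In Ipo4 the E-box begins 14 bases after the first base of the gene, and in Nup54, Ipo7 and Xpot it begins 100, 137 and 231 bases before it. The other members with an E-box were not called: Nup93 (difference 0.48), Nup188 (0.39) and Tnpo2 (-0.085). Nup188 and Tnpo2 held 2 copies each, which sets the stretches around them, with 20 bases on either side, beside those of the called genes.
Nup93 (chr8:94214369-94214414, plus strand): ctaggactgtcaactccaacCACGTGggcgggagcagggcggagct
Nup188 (chr2:30286330-30286417, plus strand): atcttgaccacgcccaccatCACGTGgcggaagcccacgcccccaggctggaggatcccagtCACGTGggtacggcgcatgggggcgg
Tnpo2 (chr8:85036718-85036802, plus strand): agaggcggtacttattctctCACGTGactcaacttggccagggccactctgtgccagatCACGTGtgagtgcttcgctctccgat
A match is a description of these letters and does not show binding.

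Among importins, all 4 called genes were Ipo genes, which encode carriers related to importin beta that take cargo through the pore. Of the 8 genes named Kpnb1 or Ipo, 4 were higher (50%, beside 11.2% of all genes tested), with a median of 0.54. The transportins were grouped apart by gene name. Of 5 alpha adaptors and of 3 transportins 0 were called, with medians of 0.25 and 0.084. The difference between these subgroups was not tested. At an unadjusted p under 0.05, too, 0 alpha adaptors and 0 transportins passed in either direction by limma. These counts rest on the brightest probe set of each gene. Another probe set was called higher for Tnpo1 (0.60, adjusted p = 0.015) and for Kpna3 (1.33, adjusted p = 0.021). Ipo4, a carrier of histones and ribosomal proteins, had signals of 1912, 1998, 2145 and 1799.8 in MYC-positive arrays, against 723, 734, 1131 and 687 in MYC-negative arrays. All 4 MYC-positive arrays lay above the highest MYC-negative array, that of pair 3. The difference was 1.29 (SE 0.18, adjusted p = 0.0022), which is 2.45-fold, with a 95% interval of 0.89 to 1.69.

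Ipo11, which carries a ubiquitin-conjugating enzyme and a ribosomal protein, had signals of 5204, 5125, 4379 and 4661 in MYC-positive arrays, against 2869.6, 2817, 2817 and 2535 in MYC-negative arrays. The groups did not overlap, and the pairs differed little from each other, with the smallest difference in pair 3 (0.64). Its difference of 0.81 (SE 0.13, adjusted p = 0.0044) was 1.75-fold. Ipo5, a carrier of ribosomal proteins and core histones, had signals of 4879, 5937, 7738 and 5007 in MYC-positive arrays, against 3124, 3496, 3999 and 4755 in MYC-negative arrays. The groups were only just apart, and pair 4 differed by 0.074 while the other pairs differed by 0.64 to 0.95. The mean difference was 0.61 (SE 0.16, adjusted p = 0.029). Ipo7, which imports ribosomal proteins and, together with importin beta, linker histone H1, showed the same array pattern, with signals of 3524, 4649.6, 6640.3 and 3605 in MYC-positive arrays, against 2201, 2659, 3415 and 3715 in MYC-negative arrays. Here the groups overlapped and pair 4 was at -0.044, with a mean of 0.60 (SE 0.18, adjusted p = 0.044). The calls of Ipo5 and Ipo7 ended without pair 1 (adjusted p = 0.14 and 0.19), without pair 2 (0.14 and 0.19), without pair 3 (0.089 and 0.13) and with the pair left out of the model (0.053 and 0.11). The mean over all kept probe sets put Ipo7 at -0.16 and Ipo11 at 0.25 (adjusted p = 0.49).

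No carrier of the classical import route was called by its brightest probe set. Kpnb1, importin beta, which takes alpha adaptors and their cargo through the pore, had signals of 10636, 11154, 13112 and 12666 in MYC-positive arrays, against 7753, 9916, 7978 and 11505 in MYC-negative arrays. It was higher within each pair, but the groups overlapped and the difference of 0.37 (SE 0.13, adjusted p = 0.078) did not pass. Kpna2, an alpha adaptor that recognises classical nuclear localisation signals and is abundant in dividing cells, had signals of 5043, 5013, 5293 and 6189 in MYC-positive arrays, against 4061, 4456, 4424 and 5106 in MYC-negative arrays. Its 4 pairs were much alike, from 0.17 to 0.31, and only the MYC-negative array of pair 4 reached into the MYC-positive range. The difference was 0.25 (SE 0.12, adjusted p = 0.17), with a 95% interval of -0.024 to 0.53. The other alpha adaptors were at 0.094 (Kpna1), 0.24 (Kpna6), 0.27 (Kpna4) and 0.28 (Kpna3), with adjusted p between 0.24 and 0.70. All 5 alpha adaptors were thus above 0, and the 95% interval of each included 0. Kpna4 passed without pair 4 (0.40, adjusted p = 0.045), as did Kpnb1 (adjusted p = 0.026). With the mean over probe sets Kpnb1 (0.45, adjusted p = 0.036) and Kpna3 (0.63, adjusted p = 0.041) passed. The Kpnb1 probe set is of the x_at kind, which can match transcripts of several genes. Without that kind Kpnb1 was at 0.36 and not called (adjusted p = 0.058).

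Ipo8, a relative of Ipo7, had the difference nearest 0 of the importins, with signals of 4864, 4812, 6472 and 6558 in MYC-positive arrays, against 5046, 4933, 5678 and 6189 in MYC-negative arrays. Its difference was 0.046 (SE 0.12, adjusted p = 0.83), with an interval of -0.23 to 0.33, and it was at -0.10 after quantile normalization. Ipo9, a carrier of histones and actin, was at 0.36 (adjusted p = 0.19) and higher in all 4 pairs. Ipo13, which imports some cargoes and exports others, was at 0.48 (adjusted p = 0.33), most of it from pair 4 (1.53). Transportins import RNA-binding proteins, and Tnpo1 (transportin 1) was at 0.084, Tnpo2 at -0.085 and Tnpo3, the importer of SR splicing factors, at 0.25. Tnpo1 and Tnpo2 were higher in pairs 1 to 3 and lower in pair 4 (-0.81 and -1.35). The other kept probe sets of Tnpo1 were higher in pair 4 (0.71 and 0.73), while those of Tnpo2, which were dimmer, were lower.

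Of the 6 exportins, the tRNA exportin was the one called. Xpot had signals of 2021, 2506, 2141 and 1514 in MYC-positive arrays, against 939, 1137, 1048 and 1035 in MYC-negative arrays. Every MYC-positive array exceeded every MYC-negative one, and pair 4 had the smallest difference (0.55). The difference was 0.96 (SE 0.18, adjusted p = 0.0067), or 1.94-fold, with an interval of 0.56 to 1.35. The call ended without pair 1 (adjusted p = 0.061) and without pair 2 (0.065).

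Xpo1 (CRM1), the general exporter of proteins with leucine-rich export signals and of both ribosomal subunits, did not differ beyond its error. Its signals were 6833, 7767, 10200.0 and 5790.4 in MYC-positive arrays, against 6275, 7178, 6788 and 10648 in MYC-negative arrays. Pairs 1 to 3 were higher in the MYC-positive array (0.12, 0.11 and 0.59) and pair 4 was lower (-0.88). The mean was -0.014 (SE 0.21, adjusted p = 0.97), with an interval of -0.49 to 0.47, and it was 0.27 without pair 4 (adjusted p = 0.16) and 0.43 after median centring.

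Xpo5, which exports microRNA precursors, was dim, with signals of 163, 204, 117 and 388 in MYC-positive arrays, against 142, 198, 115 and 57.6 in MYC-negative arrays. The pairs were unlike: 3 differed by 0.029 to 0.20 and pair 4 by 2.75, so the mean of 0.76 had an SE of 0.48 (adjusted p = 0.30) and was 0.091 without pair 4. Its other kept probe set, of similar signal, differed by 0.34, 1.41, 0.25 and 1.75 in pairs 1 to 4. The mean there was 0.93 (adjusted p = 0.10). Xpo6, the exporter of profilin-actin, was at 0.63 (adjusted p = 0.13) and higher in all 4 pairs, with pair 4 again the largest (1.48). Xpo7 was at 0.26 (adjusted p = 0.23). Xpo4, a carrier for the translation factor eIF5A, was at -0.27 (adjusted p = 0.68), far below 0 in pair 4 and at -0.013 to 0.62 in the others.

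Among pore proteins, 3 of the 4 called genes encode subunits of the Y complex, the scaffold that forms the outer rings of the pore. Of its 6 measured members under the name rule 3 were higher (50%, beside 11.2% of all genes tested). Their median was 0.50, beside -0.063 for all genes tested. Nup43 had the largest difference of all 41 members, with signals of 1623, 1866, 1781 and 1815 in MYC-positive arrays, against 606, 639, 654 and 680.3 in MYC-negative arrays. The arrays of each group lay close together and far from the other group, with differences from 1.42 to 1.55 in the 4 pairs. The mean was 1.46 (SE 0.17, adjusted p = 0.0011), or 2.75-fold, with an interval of 1.07 to 1.84.

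Nup37, another small subunit of the Y complex, had signals of 1516, 1763, 1911 and 2372 in MYC-positive arrays, against 859.7, 897, 951 and 1255 in MYC-negative arrays. The groups did not overlap and the pairs ran from 0.82 to 1.01. Its difference of 0.93 (SE 0.16, adjusted p = 0.0051) was 1.91-fold, and adjusted p was 0.053 without pair 2. Nup85, also a subunit of it, had signals of 6526, 6351, 7484 and 8297 in MYC-positive arrays, against 3899, 4586, 4584 and 6812 in MYC-negative arrays. It was higher within each pair, but the MYC-negative array of pair 4 lay within the MYC-positive range. The mean was 0.55 (SE 0.13, adjusted p = 0.019), and the call ended without pair 1 (adjusted p = 0.14), without pair 2 (0.084), without pair 3 (0.051) and with the pair left out of the model (0.069).

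The remaining subunits of this scaffold were nearer to 0. Nup133 was at 0.45 (adjusted p = 0.055), Nup160 at 0.27 (0.26) and Nup107 at 0.18 (0.40). The 95% interval of Nup107, -0.14 to 0.50, lay wholly below that of Nup43. Of the subunits whose names fall outside the rule, Sec13, which also serves in vesicle coats, was higher at 0.46 (adjusted p = 0.048), while Seh1l was at 0.25 (0.28) and Ahctf1, which anchors new pores to chromatin, at -0.11 (0.78), or 0.11 without pair 4.

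Inner ring subunits were above 0 without a call. Nup93 was at 0.48 (adjusted p = 0.0505), with all MYC-positive arrays above all MYC-negative ones, and passed without pair 4 (adjusted p = 0.044). Nup188 was at 0.39, Nup205 at 0.33 and Nup155 at 0.28, with adjusted p between 0.26 and 0.35. Nup205 and Nup155, large scaffold proteins, were lower in pair 4 (-0.47 and -0.27), higher in the other pairs, and passed without it (adjusted p = 0.016 and 0.018).

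In the channel, Nup54 had signals of 1759.6, 1339.9, 2036 and 1310.0 in MYC-positive arrays, against 846, 747, 1240.4 and 1252 in MYC-negative arrays. The groups were just apart, and the difference in pair 4 was 0.065 where the other pairs had 0.72 to 1.06. The mean was 0.67 (SE 0.20, adjusted p = 0.044). Its probe set is of the x_at kind, which can match transcripts of several genes, and without such probe sets Nup54 was at 0.36 and not called (adjusted p = 0.28). The call also ended without pair 1 (0.22), pair 2 (0.20) or pair 3 (0.11), and with the pair left out of the model (0.076).

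Nup62, the partner of Nup54 in the channel, had signals of 15983, 14926, 18624 and 21487 in MYC-positive arrays, against 12046, 13955, 10772 and 19411 in MYC-negative arrays. It was higher within each pair, the groups overlapped, and the difference was 0.36 (SE 0.14, adjusted p = 0.091). This too is an x_at probe set, and without that kind Nup62 was at 0.54 and passed (adjusted p = 0.038). Nup98, a repeat protein of the channel that also binds RNA export factors, had signals of 4311, 5637, 6965 and 2542 in MYC-positive arrays, against 4092, 4237, 4649 and 5009.6 in MYC-negative arrays. Pairs 1 to 3 were higher and pair 4 was lower (-0.98), with a mean of 0.023 (SE 0.24, adjusted p = 0.96) and an interval of -0.52 to 0.56.

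The 2 sides of the pore showed no called gene. Nup153 of the nuclear basket had signals of 1682, 2231, 3248 and 2325 in MYC-positive arrays, against 1990.3, 1882, 2605 and 2429.6 in MYC-negative arrays. The groups were intermixed, with a mean of 0.064 (SE 0.16, adjusted p = 0.82). Nup50, its basket partner, was at 0.083. On the cytoplasmic side Nup88 had signals of 1796, 1501, 1274 and 1563 in MYC-positive arrays, against 1576, 1645, 1239 and 1718 in MYC-negative arrays. It had the difference nearest 0 of all members, -0.010 (SE 0.16, adjusted p = 0.97), with an interval of -0.37 to 0.35, and its partner Nup214 was at 0.30 (adjusted p = 0.35). The membrane protein Nup210 was at 0.14 (adjusted p = 0.42). Nup210l, its paralogue, was the only member with 4 pairs below 0, but it was dim, with signals of 15.3, 61.2, 74.7 and 4.92 in MYC-positive arrays, against 93.6, 63.5, 133 and 59.3 in MYC-negative arrays. The MYC-positive arrays of pairs 1 and 4 lay under the filter level, and the difference of -1.77 had an SE of 0.60 (adjusted p = 0.065).

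**Figure D2:**
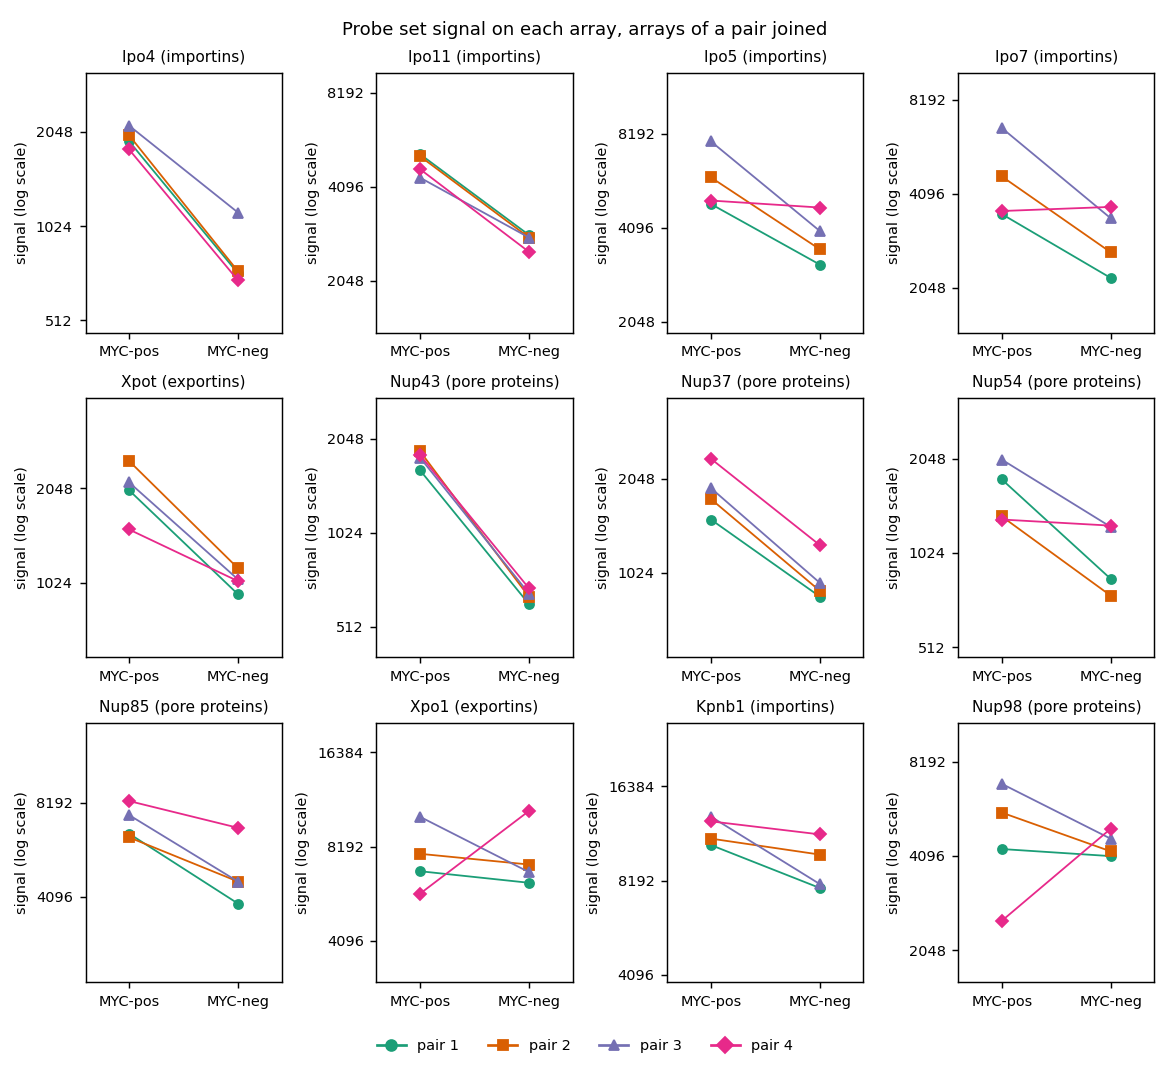
Probe set signal (y axis, log scale, each panel spanning its own range) on the 4 MYC-positive arrays (left) and 4 MYC-negative arrays (right) for the 9 called genes and for Xpo1, Kpnb1 and Nup98, with a line joining the arrays of a pair. The lines of Nup43 and Nup37 fall alike in all 4 pairs, and those of Ipo4 and Ipo11 fall in all 4 but least in pair 3. The pair 4 line of Xpo1 and Nup98 runs the other way, at -0.88 and -0.98 on the log2 scale.

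Many members are read by several probe sets, which gives a second view of the same gene, though not always of the same transcript or at a signal far above background. The 41 tested genes had 104 kept probe sets. Fitted separately across all 22024 kept probe sets with a single gene, 21 of the 104 were higher (20.2%, beside 9.03% of all) and 0 were lower (beside 12.0% of all). Of the called genes with more than 1 kept probe set, Ipo4, Ipo5, Xpot, Nup43 and Nup85 had all of theirs called. The second probe set of Ipo4 was at 2.16 (adjusted p = 0.0039), that of Ipo5 at 1.45 (adjusted p = 0.0024) and that of Nup43 at 1.31 (adjusted p = 0.0054). Those of Xpot were at 1.55 (adjusted p = 0.0020) and 1.33 (adjusted p = 0.0056). In Ipo4, Ipo5, Xpot and Nup85 the dimmer probe sets showed the larger differences.

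In 4 genes a probe set other than the brightest was higher where the brightest was not called. These were Nup62, with 3 probe sets from 0.54 to 0.64, Tnpo1 at 0.60 (adjusted p = 0.015), Kpna3 at 1.33 (adjusted p = 0.021), and Xpo4 at 1.24 (adjusted p = 0.0091). In Xpo4 the probe sets differed in sign: mean signals were 754 in MYC-positive and 319 in MYC-negative arrays for this one, and 476 in MYC-positive and 573 in MYC-negative arrays for the one used above. For Xpo1 the second bright probe set was at 0.26 (adjusted p = 0.29), so neither was called. Of 33 genes with more than 1 kept probe set, 15 had probe sets of both signs, Ipo7, Ipo11 and Nup54 among them. In Ipo7 the other probe sets were at -0.66 (adjusted p = 0.24) and -0.43 (adjusted p = 0.59).

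**Figure D3:**
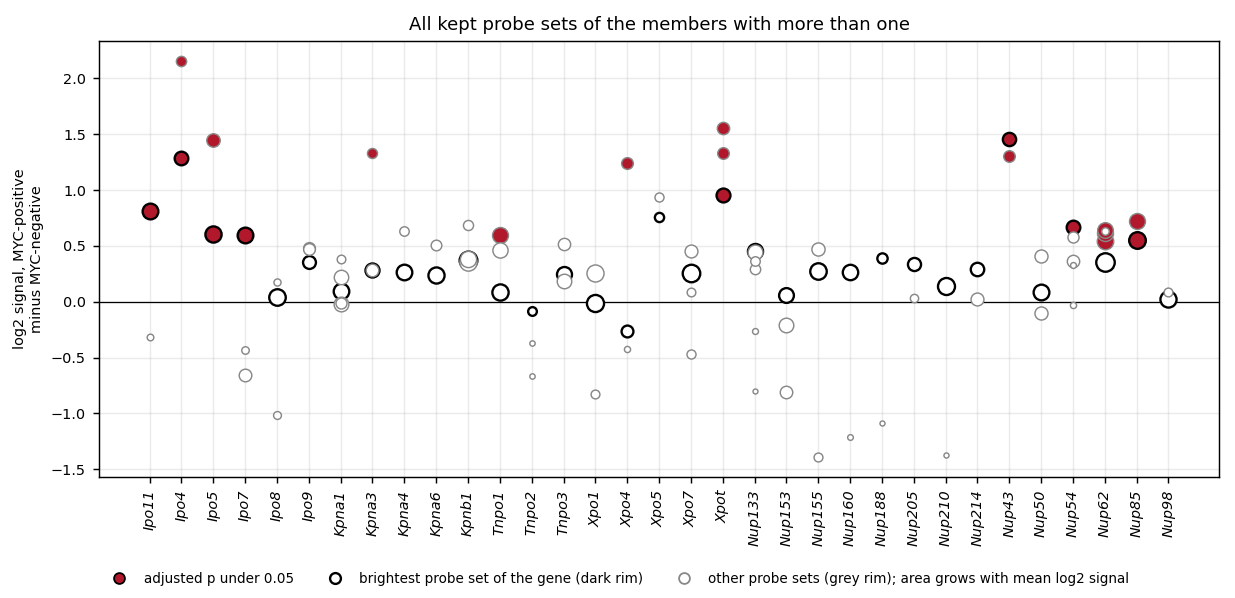
Difference in log2 signal (MYC-positive minus MYC-negative, y axis) of every kept probe set of the 33 genes that have more than 1, with the area growing with the mean log2 signal, red for adjusted p under 0.05 and a dark rim for the brightest probe set of the gene. All 3 probe sets of Xpot lie between 0.96 and 1.55 and both of Nup43 between 1.31 and 1.46, while dim probe sets of several Nup genes lie below -1.

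Pair 4 had more members below 0 than the other pairs. Members below 0 numbered 6 in pair 1, 6 in pair 2, 3 in pair 3 and 13 in pair 4. Above 0 were 35, 35, 38 and 28 of the 41 members in pairs 1 to 4. Of all 11754 genes tested, 6022, 5452, 4744 and 5895 were above 0, so over all genes it was pair 3 that had the fewest. Of the 41 genes, 8 (19.5%, where 6.30% of all genes did so) were higher in pairs 1 to 3 and lower in pair 4: Ipo7, Kpna4, Tnpo1, Tnpo2, Xpo1, Nup98, Nup155 and Nup205. This holds for the brightest probe sets. By their other kept probe sets, Tnpo1 (0.71 and 0.73) and Kpna4 (1.23) were higher in pair 4. Those of Nup155 had both signs there (0.17 and -2.12), and those of Ipo7, Tnpo2, Xpo1, Nup98 and Nup205 were lower. The median difference of importins was 0.25, 0.36, 0.49 and 0.11 in pairs 1 to 4, that of exportins 0.29, 0.079, 0.60 and 0.32, and that of pore proteins 0.31, 0.31, 0.37 and 0.27. For all genes tested the median was 0.026, -0.058, -0.20 and 0.0035. The difference of largest size fell in pair 4 for 16 members, a share close to the 41.4% of all genes. The MYC-positive array of this pair is the one with the lowest median signal, and the part of that in these values was not tested.

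Genes of the same traffic that the name rule leaves out were taken from a list of 43, of which 40 were tested. Of these 9 were higher and 0 lower by limma (before adjustment, 17 higher and 3 lower at p under 0.05), and the median difference was 0.42. Over all genes 11.2% were higher and 11.5% lower, and before adjustment 17.0% and 19.2%. The 3 largest differences were those of genes of the Ran cycle, which sets the direction of transport and of which 3 of 6 were higher. Rcc1, the chromatin-bound exchange factor that loads Ran with GTP, had signals of 4088, 4217, 4156 and 5191 in MYC-positive arrays, against 1962, 1893, 2051 and 2291 in MYC-negative arrays. The groups did not overlap and the difference was 1.10 (SE 0.14, adjusted p = 0.0014). Ranbp1, which helps release Ran from carriers in the cytoplasm, had signals of 5881, 6294, 5140.0 and 8218 in MYC-positive arrays, against 2106, 3020.3, 2526 and 2422 in MYC-negative arrays. It too was without overlap, at 1.33 (SE 0.16, adjusted p = 0.0014). Rangrf, the mouse counterpart of the yeast Ran-binding factor Mog1, had signals of 767, 863, 606 and 1238 in MYC-positive arrays, against 53.2, 70.1, 77.0 and 141 in MYC-negative arrays. At 3.40 (SE 0.28, adjusted p = 0.00044), or 10.53-fold, this was the largest difference among all transport genes examined. Its pairs ran from 2.98 to 3.85.

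Ran itself was bright, with signals of 17602, 17284, 22891 and 27432 in MYC-positive arrays, against 12634, 16329, 16254 and 25849 in MYC-negative arrays. It was higher within each pair, while the groups overlapped and the difference of 0.29 (SE 0.12, adjusted p = 0.12) did not pass. The probe set is of the x_at kind, and without that kind Ran was at 0.66 and passed (adjusted p = 0.015). Rangap1, the GTPase activator on the cytoplasmic side, had signals of 3184, 3047, 2264 and 3559.7 in MYC-positive arrays, against 2234, 2572, 1767 and 1831 in MYC-negative arrays. The MYC-positive array of pair 3 fell within the MYC-negative range, and the difference was 0.52 (SE 0.17, adjusted p = 0.053).

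Cse1l, the exportin that returns alpha adaptors to the cytoplasm, had signals of 5041, 5855, 4956 and 5423 in MYC-positive arrays, against 3148, 3848, 2447 and 3907 in MYC-negative arrays. The groups did not overlap, and the difference was 0.69 (SE 0.14, adjusted p = 0.010), where the adaptors that it carries were between 0.094 and 0.28. Nxt1, the small partner of the mRNA exporter Nxf1, had signals of 2615, 2842, 2759 and 3988 in MYC-positive arrays, against 1547, 2576, 1763 and 2931 in MYC-negative arrays. It was higher within each pair, at 0.50 (SE 0.16, adjusted p = 0.052), and Nxf1 was at 0.13, or -0.028 without pair 4. Also higher were Ncbp2, a subunit of the nuclear cap-binding complex (0.83), Rae1, an mRNA export factor docked at the pore (0.89), Ddx39b, an mRNA export helicase (0.61), and Eny2, a subunit of the TREX-2 export complex (0.59). The lowest values, Nxt2 (-1.08), Thoc2 (-0.69) and Ranbp6 (-0.63), did not pass (adjusted p between 0.091 and 0.12). Calls other than those of Rcc1, Ranbp1 and Rangrf ended when a pair was left out: without pair 1 for Cse1l, Ncbp2, Rae1, Ddx39b, Eny2 and Sec13, with adjusted p from 0.067 to 0.22, and without pair 2 for all of these but Ncbp2, from 0.052 to 0.15. The call of Sec13 also ended without pair 3 (0.051) or pair 4 (0.051). With the mean over probe sets Rae1 was at 0.15 and Eny2 at 0.41, and neither passed.

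**Figure D4:**
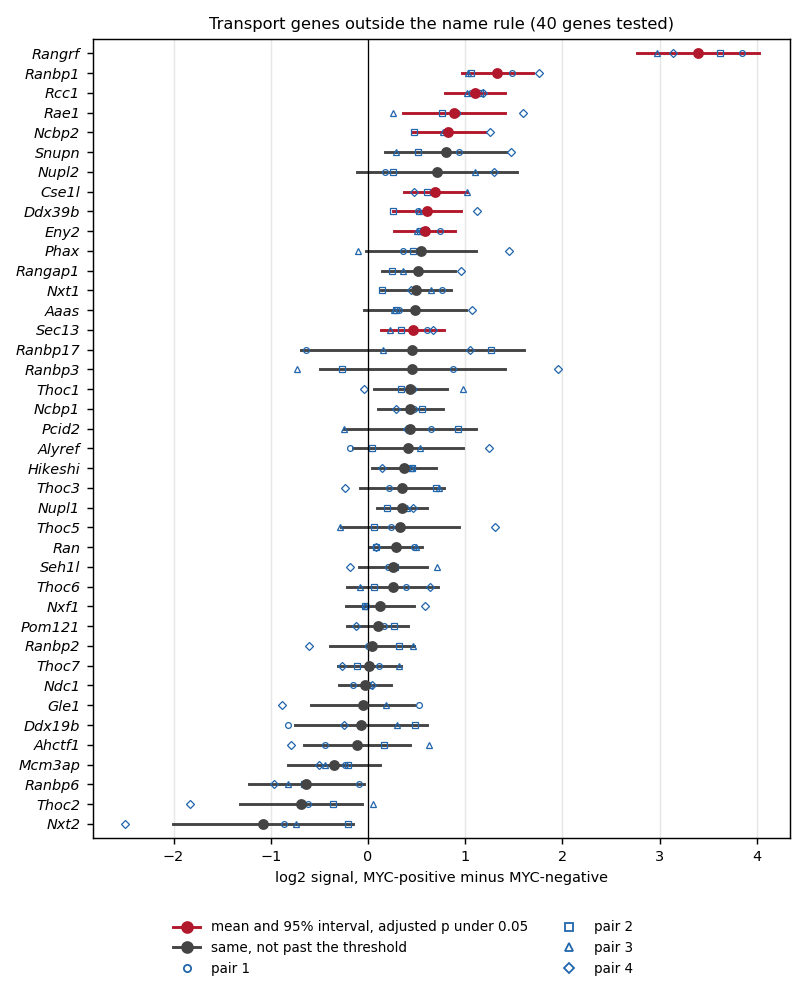
Difference in log2 signal (MYC-positive minus MYC-negative, x axis) for the 40 tested transport genes outside the name rule, with the mean and its 95% interval as a filled point and bar and the 4 pairs as open symbols. Red marks the 9 genes with adjusted p under 0.05, with Rangrf at 3.40, Ranbp1 at 1.33 and Rcc1 at 1.10 at the top.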

How the data were processed

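RNA of 8 sorted samples (4 MYC-positive, 4 MYC-negative) was amplified from 5 to 20 ng with NuGEN kits and hybridised to Affymetrix mouse expression arrays, per the labels' protocols. The authors deposited a linear intensity per probe set, made with MAS5 per the submitters' processing notes. The sources used here give no version, scaling target or detection calls. Trimmed means (2% trimmed at each end) were nearly equal over arrays. The number of arrays limits the precision. Of 45056 probe sets, 19 controls were left out, 34945 had 1 gene symbol in the platform annotation, 932 had several and 9160 had none.

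From the deposited intensity, log2 values with a floor of 1 were computed. Probe sets with a mean above the 40th percentile of log2 values were kept (27022), and the brightest per gene was taken. The log2 values of 11754 genes were fitted with limma 3.58.1 in R 4.3.3, with pair and group as terms and an intensity trend (3 residual degrees of freedom), and two-sided p-values were adjusted over all genes (Benjamini-Hochberg). Every adjusted p in the text is from limma, by this fit unless an alternative or another probe set is named. Each alternative, and the fit of separate probe sets, was adjusted over all that it tested. A gene is called at an adjusted p under 0.05. The pairs come from the sample descriptions. Deviations from the group means correlated within pairs at 0.26, 0.17, 0.088 and 0.12. Over 4 pairs alone an exact sign-flip test cannot go below 0.125.

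The alternatives were no pair term, quantile normalization, median centring, other filters (none or the 60th percentile), a floor of 16, the mean over probe sets, no trend, and leaving out each pair. Leaving out x_at probe sets and fitting every probe set separately were added after seeing the data. All members are named. Signals by array are given for 8 members chosen for their role, for the 3 called members of each class with the largest difference in each direction, for the member of each class nearest 0 and, chosen after their values were seen, for Ipo7, Nup85 and Nup210l. Of the other transport genes this was done for 6 chosen for their role and for the 3 largest calls. The members, lists and tests were chosen with earlier results of these data known. Of the other transport genes, Nutf2, Tpr and Ddx19a were not analysed here, and Tmem48 and Thoc4 are given by their current names Ndc1 and Alyref.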

Additional observations from a re-analysis of the deposited data

Results flagged for a closer look

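In 7 of the 118 groups of 4 arrays checked, for 41 members and the 18 other transport genes named in the text (5.93%, where chance gives about 1 in 20), 1 array's gap to its nearest neighbour, as a share of the group's whole range, was above Dixon's 95% critical value. In Xpo4 the MYC-positive array of pair 4 was low, at 165, with a gap of 0.870 of the range. In Ipo13 the MYC-positive array of pair 3 was low, at 156 (0.969). In Ipo11 the MYC-negative array of pair 4 was low, at 2535 (0.850), and in Ipo4 the MYC-negative array of pair 3 was high, at 1131 (0.867). The MYC-positive array of pair 4 was high in Ncbp2, at 4645 (0.897), and in Rcc1, at 5191 (0.870). In Nxf1 the MYC-positive array of pair 3 was low, at 3221 (0.854). Of the 4 members, Ipo4 and Ipo11 were called.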

How the results depend on the processing

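Of the 9 called members, Ipo4 and Nup43 were called under all 13 alternatives, as were Ranbp1, Rcc1 and Rangrf among other transport genes. The number of importins called higher, 4 as reported, was 2 without the replicate block, 2 without the intensity trend, 11 after median centring, and 2 to 6 with a pair left out. For exportins, 1 as reported, it was 2 after quantile normalization, 3 after median centring and 0 to 1 with a pair left out. For pore proteins, 4 as reported, it was 2 without the replicate block, 2 without the trend, 14 after median centring and 1 to 8 with a pair left out. For other transport genes, 9 as reported, it was 3 without the trend, 27 after median centring and 3 to 14 with a pair left out, and 1 was lower with the mean over probe sets. The number of all genes called higher moved too. It was 1319 of 11754 as reported, 1055 without the replicate block, 736 without the trend and 3204 after median centring. With a pair left out it was 403 to 1742, and after quantile normalization 1787 of 11771. With the mean over probe sets 1592 of all genes were lower, against 1352 as reported. Median centring put the medians at 0.71 for importins, 0.89 for exportins, 0.74 for pore proteins and 0.86 for other transport genes. The pore protein median was 0.19 after quantile normalization, 0.13 with the mean over probe sets and 0.22 to 0.36 with a pair left out, and that of other transport genes 0.33 to 0.40 with a pair left out. Against the rise of all genes by 0.44 under median centring and by 0.15 under quantile normalization, the members and the 18 other transport genes named in the text changed sign as follows. With the mean over probe sets Ipo7 was at -0.16, Ipo8 at -0.26, Nup153 at -0.32, Nup155 at -0.21, Nup160 at -0.47, Nup188 at -0.35, Nup210 at -0.61, Nxf1 at -0.047 and Xpo4 at 0.18. After quantile normalization Ipo8 was at -0.10, Nup210 at -0.029, Nup50 at -0.020, Nup98 at -0.051, Nup88 at 0.038 and Tnpo2 at 0.36. After median centring Nup88 was at 0.43, Tnpo2 at 0.36, Xpo1 at 0.43, Ahctf1 at 0.33 and Xpo4 at 0.17. With a pair left out, ranges across 0 were -0.0018 to 0.079 for Ipo8, -0.027 to 0.20 for Kpna1, -0.020 to 0.17 for Nup153, -0.076 to 0.032 for Nup88, -0.16 to 0.36 for Nup98, -0.13 to 0.38 for Tnpo1, -0.26 to 0.34 for Tnpo2, -0.21 to 0.27 for Xpo1, -0.56 to 0.31 for Xpo4, -0.36 to 0.11 for Ahctf1 and -0.028 to 0.18 for Nxf1. Each fit with a pair left out has fewer arrays. The count of members called was lower without pair 1, 2 or 3 and higher without pair 4. The cause of the shifts was not tested.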
